A study of Rattus norvegicus with 20 samples.

Results

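The 8 libraries of rat microglia given an agonist of Toll-like receptor 2 (TLR2) were set against the 4 given an agonist of TLR4, to ask which genes separate signalling through the 2 receptors. These 12 libraries came from a study of 20, in which RNA was sequenced from cultured cortical microglia (macrophages that reside in brain tissue) of male Sprague-Dawley rats aged 21 days. Perfused brains without the cerebellum were dissociated, cells were immunopanned for the myeloid integrin CD11b, and after 5 days in serum-free medium the agonist was added in a 50% medium change. Cells received 1 of 3 agonists. LPS (1 ng/mL) is a bacterial endotoxin and activates TLR4. PAM3CSK4 (1 ng/mL) is a lipopeptide made to activate the TLR2 and TLR1 pair. Zymosan (100 ug/mL), from yeast cell walls, activates TLR2 and also dectin-1. The other groups, PBS and morphine (1 uM), served here for reference levels and for the estimate of spread. Each group had 4 libraries. PAM3CSK4 and zymosan were pooled with equal weight as the TLR2 group. The 3 agonists were each used at 1 concentration, so that receptor and strength of stimulation cannot be told apart. Zymosan engages a second receptor, and how long the cells were treated is not stated in the labels.

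TLR2 and TLR4 share an adaptor, MyD88, through which they activate NF-kB and MAP kinases and induce cytokines such as interleukin-1 beta and tumour necrosis factor. TLR4 can also signal from endosomes through the adaptors TRAM (Ticam2) and TRIF (Ticam1), which activate the transcription factor IRF3. IRF3 targets include interferon beta, Ccl5 and Cxcl10, and interferon beta in turn induces the interferon-stimulated genes. Dectin-1, encoded by Clec7a, recognises beta-glucan and signals through the kinase Syk.

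The deposited FPKM (fragments by transcript length and library size) summed to 306075 to 397357 per library, with 9397 to 10545 of 17310 listed genes above 0. Counts were not in the table, so the depth is unknown. Of these genes, 8858 had at least 1 FPKM in at least 4 libraries and were tested. In the residuals about the group means, the first component held 63.2% of the variance and split off a smaller set of 7 libraries. That set held LPS 1 and 2, PAM3CSK4 1 and zymosan 1, that is, 2 of 4 LPS and 2 of 8 TLR2 libraries, so results are also given with a term for the sets. The summed level of 15 microglia and macrophage markers, none at 0 in all 12 libraries, ran from 1819 to 2617 FPKM with LPS and from 1873 to 2708 with the TLR2 agonists. Tyrobp made up 53.0% of that sum. Some markers were low, such as P2ry12, with means of 0.182 FPKM with LPS and 0.335 with the TLR2 agonists. Means of Cx3cr1 were 2.33 and 3.64 FPKM, and those of C1qa 1.34 and 3.05 FPKM. Of the markers of other cell types, those listed at 0 in all 12 libraries were 3 of 9 for astrocytes (Gfap, Aqp4 and Sox9), 7 of 13 for T, NK and B cells (Cd3e among them), 4 of 11 for the oligodendrocyte lineage (Mog, Mag, Mobp and Sox10), 8 of 11 for neurons (Rbfox3 and Syt1 among them), 4 of 11 for endothelial cells and pericytes (Cldn5, Kdr, Pdgfrb and Rgs5) and 4 of 11 for neutrophils (Mpo, Elane, Ltf and Mmp8). The summed levels with LPS and with the TLR2 agonists were 0.823 to 5.54 and 0.712 to 4.01 FPKM for astrocytes, 4.2 to 32 and 6.18 to 26.1 FPKM for T, NK and B cells, 9.41 to 24.2 and 9.8 to 27.6 FPKM for the oligodendrocyte lineage, 9.79 to 20.6 and 9.51 to 25.5 FPKM for neurons and 9.49 to 23.6 and 11.9 to 25.5 FPKM for endothelial cells and pericytes. The most abundant marker in each was Slc1a3 (50.4% of the sum), Cd4 (96.4%), Cnp (59.8%), Tubb3 (82.7%) and Flt1 (69.2%). Summed neutrophil markers ran from 626 to 1124 FPKM with LPS and from 860 to 1394 with the TLR2 agonists, with 99.7% from Mmp9, which macrophages also express. The 8 markers of perivascular and peripheral macrophages found in the table, which include Cd36 and of which Cd163 was at 0, ran from 155 to 211 and from 130 to 278 FPKM. The part of these cell types in the results was not tested.

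Few genes were called between the TLR2 agonists and LPS in the main fit, and the number depended on the fit. Of the 8858 genes, limma called 7 (0.079%), 1 higher (0.0113%) and 6 lower (0.0677%) with the TLR2 agonists. The gene called higher was Il10, which encodes the anti-inflammatory cytokine interleukin-10. Those called lower were Ccl5, a chemokine for T cells and monocytes, Lcn2, the iron-scavenging acute-phase protein lipocalin-2, Crip2, a LIM domain protein, Stap2, a signalling adaptor, and the calmodulin genes Calm2 and Calm3. At an unadjusted p under 0.05, 508 genes were higher (5.73%) and 98 lower (1.11%). After median-ratio rescaling of the libraries these counts were 288 and 257. The median difference of all tested genes was 0.15 on the log2(FPKM + 1) scale as deposited, with 74.3% of genes above 0, and 0.01 after rescaling. Differences below are TLR2 minus LPS on that log2 scale, which understates folds of low genes, and are to be read against this shift. The 95% intervals had a median half-width of 0.46, and 82.8% of them lay within 1 log2 unit of 0. Without LPS 1, limma called 0 genes (453 passed an unadjusted threshold of 0.05), and the 7 genes had adjusted p between 0.0577 and 0.108. The differences were then -2.39 for Ccl5, -1.20 for Lcn2, -1.17 for Crip2, -0.93 for Stap2, -0.63 for Calm3, -0.50 for Calm2 and 1.47 for Il10. Within the larger library set limma called 3 genes, of which Crip2 alone was among the 7. There 1324 genes had an unadjusted p under 0.05, against 606 in the main fit. With a pseudocount of 0.1 FPKM limma called 2, Crip2 and Calm2. Other fits called more: 48 with the set term, 78 with the replicate number as a block and 141 with library quality weights. The set term was found in these same values, and the labels do not pair samples by replicate number. In bulk RNA, fewer cells of a type and less RNA per cell cannot be told apart.

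Ccl5 parted the groups most widely. It measured 40.3, 38.6, 25.5 and 25 FPKM in the LPS libraries, 2.31, 3.5, 6.28 and 8.21 in those given PAM3CSK4 and 6.57, 2.96, 4.01 and 6.77 in those given zymosan. Every LPS library lay above every TLR2 library, and the 2 LPS libraries of the smaller set were the highest. The mean was 32.4 ± 8.21 FPKM with LPS (SD, n = 4) and 5.08 ± 2.14 with the TLR2 agonists (SD, n = 8), a ratio of 6.38. The log2 difference was -2.51 (SE 0.36), with a 95% interval from -3.26 to -1.76 (limma adjusted p = 0.00755). Levels with PBS were low, at 0, 1.73, 0.562 and 2.11 FPKM, so both TLR2 means stood between PBS and LPS. PAM3CSK4 and zymosan each had a mean of 5.08 FPKM. Within the larger library set the difference was -2.13 and not called (limma adjusted p = 0.12), within the smaller set -3.01, and with the set term -2.56 (limma adjusted p = 0.0019). With a pseudocount of 0.1 FPKM the call was also lost (difference -2.73, limma adjusted p = 0.373), as it was without LPS 1 (-2.39, limma adjusted p = 0.0577).

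Lcn2 was abundant with all 3 agonists. It measured 595, 1036, 869 and 761 FPKM in the LPS libraries, 571, 608, 541 and 431 in those given PAM3CSK4 and 256, 309, 239 and 311 in those given zymosan. LPS libraries were highest and zymosan libraries lowest, and LPS 1 lay within the PAM3CSK4 range. With PBS the mean was 3.19 ± 1.01 FPKM (SD, n = 4), so all 3 agonists stood far above it. The log2 difference was -1.05 (SE 0.18, limma adjusted p = 0.0315), made up of -0.58 for PAM3CSK4 and -1.53 for zymosan against the same LPS libraries. All zymosan libraries lay below all PAM3CSK4 libraries, and the difference between these agonists did not pass (0.94, limma adjusted p = 0.462). With the set term the pooled difference was -1.08 (limma adjusted p = 0.00731). In the larger set it was -1.08 and not called (limma adjusted p = 0.12), and in the smaller set it was -1.04. The call was also lost with the 8 TLR2 libraries as 1 group and with a pseudocount of 0.1 FPKM (limma adjusted p = 0.241 and 0.171). Of the fits that left out 1 library, only those without PAM3CSK4 1 or zymosan 4 kept the call, with differences of -1.20 to -0.93 over the 12 fits.

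Crip2, a small protein of paired LIM zinc-finger domains, measured 27.3, 24.5, 20.2 and 22.4 FPKM in the LPS libraries, 13, 11.6, 10.8 and 9.39 in those given PAM3CSK4 and 8.74, 8.44, 5.92 and 8.47 in those given zymosan. The LPS libraries did not overlap the others, and each PAM3CSK4 library lay above each zymosan library. The ratio of LPS to TLR2 means was 2.47 and the log2 difference -1.24 (SE 0.18, limma adjusted p = 0.00755). It was the call that held under most settings, 22 of 23, and was lost without LPS 1 (difference -1.17, limma adjusted p = 0.0577). The zymosan levels lay within the range of those with PBS (10.8, 6.37, 6.78 and 4.95 FPKM). The PAM3CSK4 libraries at 13 and 11.6 FPKM lay above that range, and the PAM3CSK4 mean stood between those of zymosan and LPS.

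Stap2, an adaptor with pleckstrin and SH2 domains, fell outside the naming rule because its groups overlapped and its level was low, and is named as the remaining called gene. It measured 4.09, 2.42, 4.22 and 5.42 FPKM in the LPS libraries, 2.43, 2.15, 1.79 and 2.13 in those given PAM3CSK4 and 0.642, 0.85, 1.21 and 1.86 in those given zymosan. LPS 2 lay below PAM3CSK4 1, and the other LPS libraries were above all 8. The difference was -0.94 (SE 0.17, limma adjusted p = 0.0335), -1.14 in the larger set and -0.81 in the smaller. It was not called within the larger set, with the 8 TLR2 libraries as 1 group, with only the 12 agonist libraries or with a pseudocount of 0.1 FPKM (limma adjusted p from 0.05002 to 0.494). The call was kept without LPS 2, PAM3CSK4 1 or zymosan 4 and lost without any other single library, with differences of -1.12 to -0.82. With PBS it was listed at 0, 0, 0.113 and 0.188 FPKM.

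Calm2 and Calm3 encode calmodulin, the calcium sensor, with the same protein product, and their reads may have been split between near-identical copies, so both are uncertain. Calm2 measured 218, 207, 220.0 and 232 FPKM in the LPS libraries, 149, 174, 160.1 and 167 in those given PAM3CSK4 and 152, 144, 137 and 164 in those given zymosan. Calm3 measured 66, 70.3, 63.3 and 75.2 FPKM in the LPS libraries, 34.6, 43.1, 43.7 and 38.9 in those given PAM3CSK4 and 53.3, 38.9, 48.3 and 59.1 in those given zymosan. In both genes the lowest LPS library lay above the highest TLR2 library. The differences were -0.49 (SE 0.08) for Calm2 (limma adjusted p = 0.0234) and -0.62 (SE 0.11) for Calm3 (limma adjusted p = 0.0379). The TLR2 means, 156 and 45 FPKM, were below the PBS means of 190.1 and 54.8 FPKM, a comparison with no test here. After median-ratio rescaling neither Calm2 nor Calm3 was called (limma adjusted p = 0.066 and 0.0751), while the other 5 were. Neither was called within the larger set (limma adjusted p = 0.05002 and 0.124) or with only the 12 agonist libraries (limma adjusted p = 0.285 and 0.307), and Calm3 also not with a pseudocount of 0.1 FPKM or with the 8 TLR2 libraries as 1 group (limma adjusted p = 0.0854 and 0.1). With 1 library left out, Calm3 was called only without PAM3CSK4 1 or zymosan 4 (differences of -0.66 to -0.56 over the 12 fits), and Calm2 only without these, LPS 2 or PAM3CSK4 2 (-0.52 to -0.47).

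**Figure D1:**
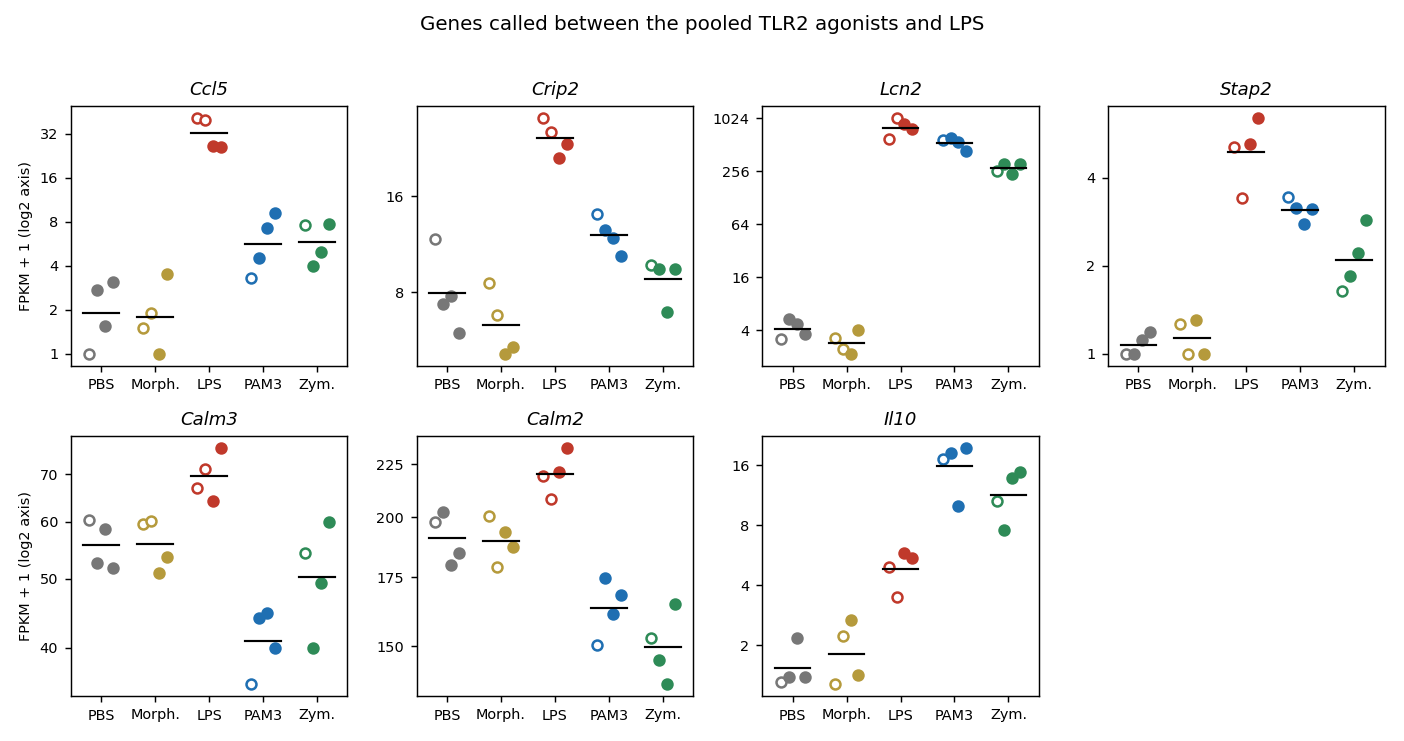
FPKM + 1 on a log2 axis for the 7 called genes, 1 point per library, in the PBS, morphine (Morph.), LPS, PAM3CSK4 (PAM3) and zymosan (Zym.) groups of 4. Open points are libraries of the smaller set and bars the group means on the log2 scale. Ccl5, Crip2, Calm2 and Calm3 are higher in every LPS library than in any TLR2 library, and Il10 is lower.

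Windows of 250 bases before the RefSeq start of assembly GRCr8 were found for 3 of the 7 called genes, all lower with the TLR2 agonists, and are shown so that what their promoters share can be read. Each runs 5′ to 3′ on the gene's strand, from chr6:138041925-138042174 (plus strand) for Crip2, chr3:36081781-36082030 (minus strand) for Lcn2 and chr9:924381-924630 (minus strand) for Stap2. Capitals mark matches to any of the 5 motifs searched on both strands.
Crip2: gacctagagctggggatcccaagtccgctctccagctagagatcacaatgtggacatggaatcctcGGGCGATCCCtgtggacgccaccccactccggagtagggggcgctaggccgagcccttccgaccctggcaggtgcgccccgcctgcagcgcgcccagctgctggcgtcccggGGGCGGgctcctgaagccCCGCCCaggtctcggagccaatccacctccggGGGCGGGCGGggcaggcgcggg
Lcn2: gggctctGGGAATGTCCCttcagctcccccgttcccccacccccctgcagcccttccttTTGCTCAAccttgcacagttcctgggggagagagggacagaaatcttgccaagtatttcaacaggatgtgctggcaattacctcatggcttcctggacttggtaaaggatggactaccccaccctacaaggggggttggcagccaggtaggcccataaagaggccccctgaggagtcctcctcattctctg
Stap2: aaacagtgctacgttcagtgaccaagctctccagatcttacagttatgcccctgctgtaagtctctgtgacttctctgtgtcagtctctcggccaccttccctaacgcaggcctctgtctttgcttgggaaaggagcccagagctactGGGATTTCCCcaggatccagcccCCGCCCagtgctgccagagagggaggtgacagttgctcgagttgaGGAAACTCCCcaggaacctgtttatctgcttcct
All 3 hold a match to an NF-kB-like motif, GGGA and CC parted by 4 bases of any kind, which 16.4% of 33469 such windows hold. Counted from the gene's start, it begins at -184 in Crip2, at -243 and, overlapping on the other strand, -242 in Lcn2, and at -102 (on both strands) and -34 in Stap2. Lcn2 also holds the C/EBP-like motif, TTGC and AA parted by 2 bases, at -191, as do 9.22% of windows. The GC box GGGCGG, found in 30.5% of windows, occurs 4 times in Crip2 and once in Stap2. The interferon-response motif, GAAA and GAAA parted by 2 bases (3.41% of windows) and TATAAA (12.9%) have no match in the 3 windows. The motifs were chosen with the sequences known, and a match is a description of letters, not of binding. The Crip2 window is rich in G and C (72.0% against a median of 51.2%).

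Il10 was the only gene called higher. It measured 3.91, 2.51, 4.78 and 4.45 FPKM in the LPS libraries, 16.2, 17.5, 8.94 and 18.5 in those given PAM3CSK4 and 9.61, 6.52, 12.7 and 13.7 in those given zymosan. All 8 TLR2 libraries lay above all 4 LPS libraries, and the mean with PBS was 0.565 ± 0.406 FPKM (SD, n = 4). The mean was 13 ± 4.32 FPKM (SD, n = 8) against 3.91 ± 1 (SD, n = 4), a ratio of 3.31, and the log2 difference was 1.46 (SE 0.25, limma adjusted p = 0.0282). PAM3CSK4 was 1.71 and zymosan 1.22 above the same LPS libraries. The difference was 1.24 in the larger set, where it was not called (limma adjusted p = 0.165), 1.70 in the smaller and 1.41 with the set term (limma adjusted p = 0.00824). The call was also lost with a pseudocount of 0.1 FPKM and with only the 12 agonist libraries in the fit (limma adjusted p = 0.263 and 0.103). Of 12 fits that left out 1 library, 8 lost the call, all but those without PAM3CSK4 1 or 3 or zymosan 2 or 4, and the difference ran from 1.31 to 1.57 over the 12.

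The naming rule gives 4 further genes on the higher side that did not pass. Dnase2, a lysosomal DNA nuclease, measured 43.2, 39.7, 36.5 and 45.1 FPKM in the LPS libraries, 52.7, 47.9, 56.6 and 49.1 in those given PAM3CSK4 and 64.5, 65.5, 77.1 and 65.6 in those given zymosan, without overlap and lowest with LPS. Its difference was 0.52 (SE 0.10, limma adjusted p = 0.0532), and the mean with PBS, 102 FPKM, was above all agonist libraries. Nradd, a death domain receptor-like gene, measured 4.28 to 5.55 FPKM with LPS and 5.57 to 12.3 with the TLR2 agonists, a difference of 0.80 (SE 0.16, limma adjusted p = 0.0849). Cd36, a scavenger receptor for lipids that also acts with TLR2, measured 0.943, 1.14, 2.02 and 1.27 FPKM in the LPS libraries, 3.41, 7.52, 9.43 and 3.34 in those given PAM3CSK4 and 5.06, 5.64, 8.64 and 3.31 in those given zymosan. Every TLR2 library exceeded every LPS library, and the difference was 1.47 (SE 0.30, limma adjusted p = 0.0878). Cd36 has a near-identical copy in the table, Cd36l1, named after its values were seen, which differed by 1.37 (SE 0.32, limma adjusted p = 0.21), so the split of reads between them is uncertain. Acy1, an aminoacylase, measured 9.39 to 15.3 FPKM with LPS and 17 to 22.9 with the TLR2 agonists, a difference of 0.59 (SE 0.14, limma adjusted p = 0.21). Over all tested genes, 49 (0.553%) had all 8 TLR2 libraries above all 4 LPS libraries and 11 (0.124%) had all below.

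With the set term limma called 29 genes higher (0.327%) and 19 lower (0.214%), 48 in all, and these held all 7 of the genes above. With rescaling as well it called 16 higher and 27 lower. The term was found in the same values and removes the spread that defined it, so its p-values may be too small. With the set term alone all 4 further genes were among the calls, with limma adjusted p of 0.00824 for Dnase2, 0.0169 for Nradd, 0.0296 for Cd36 and 0.0373 for Acy1. With rescaling as well Acy1 was no longer called (limma adjusted p = 0.108), while the other 3 were.

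Of 13 tested primary targets of the TRIF-IRF3 arm 1, Ccl5, was called, beside 0.079% of all tested genes. The 13 differences went both ways, 7 positive and 6 negative, from -2.51 to 1.02. Their median difference was 0.14, against 0.15 for all genes, and -0.03 against 0.01 after rescaling. It was 0.42 within the larger set (all genes 0.09) and -0.11 within the smaller (0.03). Ifnb1, encoding interferon beta, measured 0.229, 2.54, 4.26 and 1.15 FPKM in the LPS libraries, 4.19, 9.06, 9.38 and 4.88 in those given PAM3CSK4 and 0.727, 0.65, 3.08 and 2.57 in those given zymosan. Its mean was highest with PAM3CSK4, and the LPS range contained the zymosan range. The pooled difference was 0.72 (SE 0.35, limma adjusted p = 0.715), and PAM3CSK4 and zymosan differed by 1.57 (limma adjusted p = 0.902). Cxcl10, a chemokine for activated T cells, measured 27.5 to 61.4 FPKM with LPS and 37.2 to 90.1 with the TLR2 agonists, and its mean with PBS was 85.3 FPKM. The interferon-induced genes Ifit1, whose product binds viral RNA, and Irf7, which amplifies interferon expression, differed by 1.02 (SE 0.62) and -0.53 (SE 0.30) (limma adjusted p = 0.753 and 0.741). Ifit1 measured 3.01 to 35.2 FPKM with LPS and 8.95 to 58 with the TLR2 agonists and Irf7 63.2 to 169 FPKM with LPS and 46.7 to 113 with the TLR2 agonists, so the groups overlapped in both. Of 52 tested interferon-stimulated genes 0 were called by limma, with 2 higher and 2 lower at an unadjusted p under 0.05. Over all tested genes these shares were 5.73% and 1.11%. The median of the 52 was 0.17 against 0.15 for all genes, and 0.01 against 0.01 after rescaling. The set term gave 0 calls there as well. The 2 with the smallest p were Ifi27 (-0.50, SE 0.15, limma adjusted p = 0.465) and Bst2 (-0.64, SE 0.23, limma adjusted p = 0.614), the second of which encodes tetherin.

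**Figure D2:**
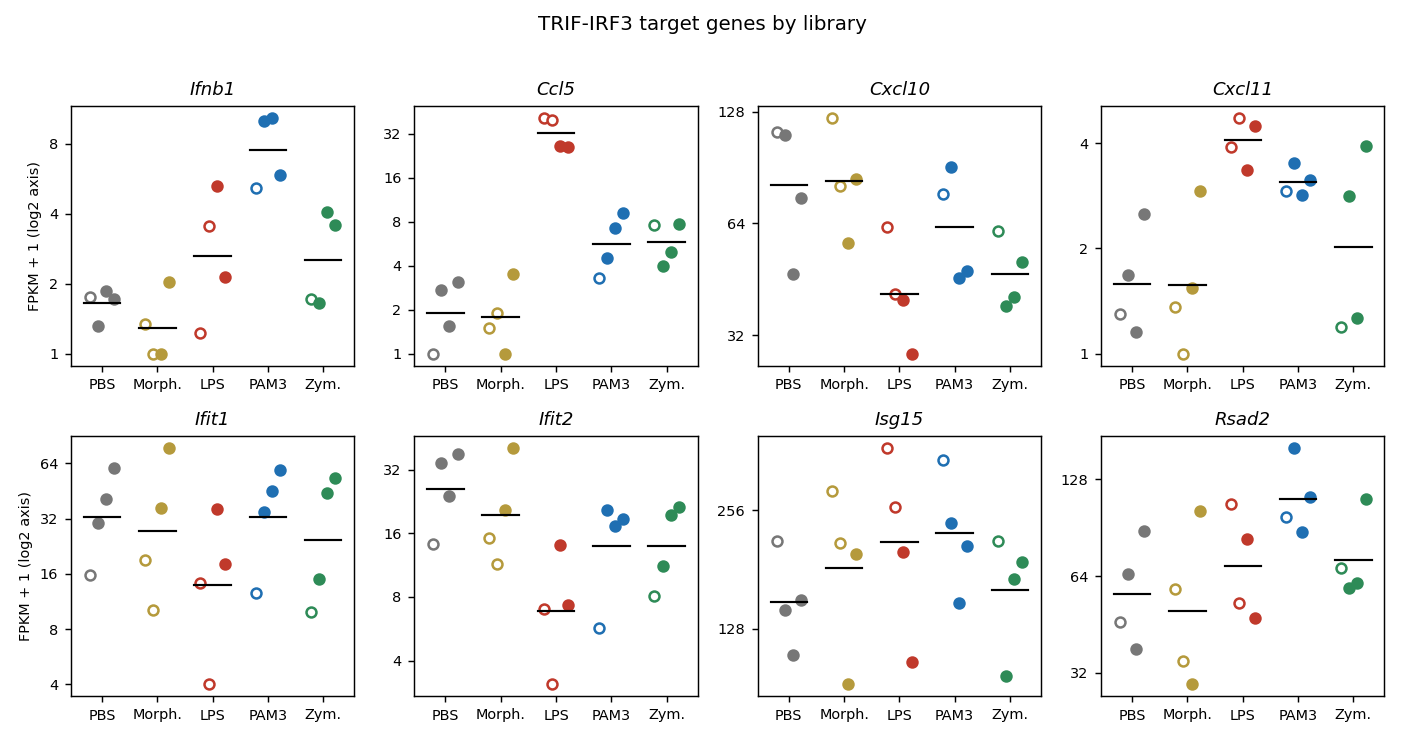
FPKM + 1 on a log2 axis for 8 TRIF-IRF3 target genes, 1 point per library, 5 groups of 4, with open points for the smaller library set and bars for group means on the log2 scale. Ccl5 parts LPS from the TLR2 agonists, Ifnb1 has its highest mean with PAM3CSK4, and LPS and TLR2 libraries overlap in the other 6 genes.

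The receptors and adaptors of both pathways did not pass. Tlr2 measured 84.6 to 214 FPKM with LPS and 61.8 to 211 with the TLR2 agonists, a difference of 0.19 (SE 0.34, limma adjusted p = 0.851). Tlr4 measured 2.35 to 7.51 FPKM with LPS and 1.18 to 10.7 with the TLR2 agonists, and both of these receptor genes were lower in the libraries of the smaller set within each agonist group. Tlr1 and Tlr6, partners of TLR2, differed by 0.48 (SE 0.41) and 0.52 (SE 0.36). Cd14, a co-receptor that hands lipids to both TLRs, measured 640.5 to 1083 FPKM with LPS and 460.1 to 1124 with the TLR2 agonists, with a difference of 0.13 (SE 0.20, limma adjusted p = 0.827). Clec7a, encoding dectin-1, stayed at 2.2 to 4.73 FPKM with LPS and 1.45 to 4.16 with the TLR2 agonists, with -0.38 (SE 0.20, limma adjusted p = 0.72). Of 15 tested genes of the TLR4 complex and TRIF arm, 21 of the TLR2 complex and dectin-1 arm and 19 of the MyD88 arm, limma called 0 in each. At an unadjusted p under 0.05, 1, 1 and 0 of them were higher and 0 lower. These were Irf3 (0.37) and Cd36. Over all tested genes 5.73% were higher and 1.11% lower at that threshold. Myd88 itself measured 16.2 to 34.7 FPKM with LPS and 22.2 to 42.1 with the TLR2 agonists (0.42, SE 0.24, limma adjusted p = 0.741), and Ticam2, encoding TRAM, 1.52 to 4.96 FPKM with LPS and 2.44 to 7.65 with the TLR2 agonists (0.50, SE 0.26, limma adjusted p = 0.72). Ly96, encoding the MD-2 subunit of the LPS receptor, reached at most 0.535 FPKM and was not tested.

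The main inflammatory cytokines were not called between LPS and the TLR2 agonists. Il1b, encoding the precursor of interleukin-1 beta, measured 8268 to 12712 FPKM with LPS and 7301 to 13101 with the TLR2 agonists, and the 95% interval of its difference was -0.43 to 0.33. Tnf, encoding tumour necrosis factor, measured 80.8 to 148 FPKM with LPS and 96.2 to 171 with the TLR2 agonists (interval -0.21 to 0.67), and Il6, encoding interleukin-6, 396 to 559.5 FPKM with LPS and 421 to 805 with the TLR2 agonists (interval -0.26 to 0.73). Csf3, encoding a neutrophil growth factor, measured 227 to 313 FPKM with LPS and 171 to 336 with the TLR2 agonists (interval -0.65 to 0.48). Changes of 1 log2 unit thus lay outside these 4 intervals, while some smaller ones lay within them. Nos2, the inducible nitric oxide synthase, was less precise, at 169 to 631 FPKM with LPS and 89.7 to 517 with the TLR2 agonists, with an interval from -1.11 to 0.72. Csf2, encoding a granulocyte and macrophage growth factor, measured 79.3, 105, 113 and 77.2 FPKM in the LPS libraries, 147, 171, 176 and 168 in those given PAM3CSK4 and 85.8, 86.4, 85.2 and 139 in those given zymosan. The 4 PAM3CSK4 libraries were above all others, and the pooled difference did not pass (0.45, SE 0.23, limma adjusted p = 0.72). Of 32 tested cytokines Il10 alone was called, beside 0.079% of all tested genes. The cytokine median was 0.23 against 0.15 for all genes, and 0.06 against 0.01 after rescaling. Il12b, encoding a subunit of interleukins 12 and 23, reached at most 0.789 FPKM and was not tested. Among 25 NF-kB subunit and feedback genes limma called 0 (3 higher and 1 lower at an unadjusted p under 0.05). At that threshold 5.73% of all tested genes were higher and 1.11% lower. Icam1, an adhesion molecule for leukocytes, differed by 0.82 (SE 0.34, limma adjusted p = 0.679) and passed with the set term (0.54, limma adjusted p = 0.0362), though not when the libraries were also rescaled (limma adjusted p = 0.0523). Nfkb1 differed by -0.80 (SE 0.36, limma adjusted p = 0.707), with LPS 4 at 54.1 FPKM and the other LPS libraries at 15.3 to 24.4. Socs1, an inhibitor of cytokine signalling, measured 1.04 to 3.39 FPKM with LPS and 3.36 to 6.62 with the TLR2 agonists (0.78, SE 0.22, limma adjusted p = 0.416).

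More chemokines were lower than higher with the TLR2 agonists, 12 against 8 of 20 tested, with Ccl5 the only call. The median was -0.14 against 0.15 for all genes, and -0.28 against 0.01 after rescaling. Within the larger set it was 0.01, against 0.09 for all genes, and within the smaller set -0.28 against 0.03. Receptors for cytokines and chemokines had positive differences in 28 of 30 genes as deposited and in 20 of 30 after rescaling, with 0 called by limma and 3 higher and 0 lower at an unadjusted p under 0.05. Of all 8858 tested genes, 74.3% were positive as deposited and 4521 genes after rescaling. At the unadjusted threshold 5.73% of them were higher and 1.11% lower.

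Of 17 genes of the metal and acute-phase response, Lcn2 was the only call, beside 0.079% of all tested genes. The metallothioneins Mt1 (listed as Mt1a) and Mt2A, which bind zinc and copper, were both lower with the TLR2 agonists without passing. Mt2A measured 154, 105, 72 and 67.2 FPKM in the LPS libraries, 123, 37.3, 33.8 and 44 in those given PAM3CSK4 and 55.3, 19.5, 21.9 and 48 in those given zymosan, with a mean of 0.802 FPKM with PBS. In each agonist group replicate 1 of the smaller set was the highest. The difference was -1.18 (SE 0.37, limma adjusted p = 0.51), and that of Mt1 -1.06 (SE 0.39, limma adjusted p = 0.63). Ass1, which makes argininosuccinate and so recycles citrulline to arginine, measured 3.84, 3.65, 4.68 and 6.44 FPKM in the LPS libraries, 1.09, 2.04, 2.5 and 2.93 in those given PAM3CSK4 and 1.29, 2.58, 1.63 and 1.84 in those given zymosan. All LPS libraries were above all TLR2 libraries. The difference of -0.93 (SE 0.18) just missed the threshold (limma adjusted p = 0.0604), and passed with the set term (limma adjusted p = 0.00239). With rescaling alone it also passed (limma adjusted p = 0.00141). It did not pass within the larger set or with a pseudocount of 0.1 FPKM (limma adjusted p = 0.0702 and 0.454). Ass1 was 1 of 23 genes of prostaglandin, nitric oxide and itaconate metabolism, of which limma called 0 (2 higher and 1 lower at an unadjusted p under 0.05). Over all tested genes these shares were 5.73% and 1.11%.

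Several glycolysis genes were lower with the TLR2 agonists in the fit with the library-set term. Of 30 tested, limma called 0 as deposited (1 higher and 4 lower at an unadjusted p under 0.05) and 5 with the set term, all lower with the TLR2 agonists. With the set term and rescaling it called 7 lower. Of all tested genes, 5.73% were higher and 1.11% lower at that unadjusted threshold, and the set term called 0.214% lower. Of the 5, rescaling alone called Slc16a3 and Tpi1 (limma adjusted p = 0.0325 and 0.0158). Within the larger library set none of the 5 was called (limma adjusted p from 0.05002 to 0.149). The list median was -0.04 against 0.15 for all genes, and -0.20 against 0.01 after rescaling, with 23 of 30 genes negative (4334 of 8858 for all tested genes). Slc16a3, the lactate exporter MCT4, measured 90.8, 69.8, 136 and 129 FPKM in the LPS libraries, 24.6, 56.9, 82.6 and 71 in those given PAM3CSK4 and 36.7, 61.2, 68.8 and 66.8 in those given zymosan. In each agonist group the libraries of the smaller set were the lowest, and within a set every LPS library was above every TLR2 library. The difference was -0.88 (SE 0.28, limma adjusted p = 0.51) and -1.07 with the set term (limma adjusted p = 0.00841). Ldha, lactate dehydrogenase, measured 946, 715, 1112 and 1219 FPKM in the LPS libraries, 655, 778, 829.6 and 867 in those given PAM3CSK4 and 689, 829.7, 809 and 799 in those given zymosan, with the same order within sets, and differed by -0.41 with the set term (limma adjusted p = 0.0301). Tpi1, Pgam1 and Gpi, enzymes of the glycolytic path, differed by -0.66, -0.41 and -0.45 with the set term (limma adjusted p = 0.0137, 0.0311 and 0.0388). Ldha, Tpi1, Pgam1 and Gpi were named after their values were seen. Egln3, a prolyl hydroxylase that acts on hypoxia-inducible factor, measured 4.36 to 11.1 FPKM with LPS and 1.87 to 6.68 with the TLR2 agonists (-0.74, SE 0.22, limma adjusted p = 0.456).

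Calls among genes of lipid handling had the opposite direction. Of 25 tested, limma called 0 (6 higher and 0 lower at an unadjusted p under 0.05), and the set term called Cd36, Gpnmb and Lpl, all higher with the TLR2 agonists. Of all tested genes, 5.73% were higher and 1.11% lower at that unadjusted threshold, and the set term called 0.327% higher. Within the larger library set Cd36, Gpnmb and Lpl were not called (limma adjusted p = 0.185, 0.137 and 0.148). Gpnmb, a glycoprotein of lipid-laden macrophages, measured 201, 243, 368 and 314 FPKM in the LPS libraries, 251, 456, 593 and 407 in those given PAM3CSK4 and 606, 781, 1094 and 615 in those given zymosan. Zymosan libraries were the highest and PAM3CSK4 1 fell within the LPS range. The mean with PBS was 1591 FPKM, so that LPS was farthest from it. The difference was 1.01 (SE 0.26, limma adjusted p = 0.301) and 0.84 with the set term (limma adjusted p = 0.0169). Lpl, lipoprotein lipase, named after its values were seen, measured 17.5, 17.2, 46.5 and 52.8 FPKM in the LPS libraries, 20.1, 75.5, 97.9 and 70.9 in those given PAM3CSK4 and 44.7, 91.3, 189 and 104 in those given zymosan, against a mean of 526 with PBS. Libraries of the smaller set were lowest in each agonist group. Its difference was 1.30 (SE 0.52, limma adjusted p = 0.649) and 0.88 with the set term (limma adjusted p = 0.0296). The list median was 0.26 as deposited and 0.09 after rescaling, with 14 of 25 genes positive after it (4521 of 8858 for all tested genes).

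**Figure D3:**
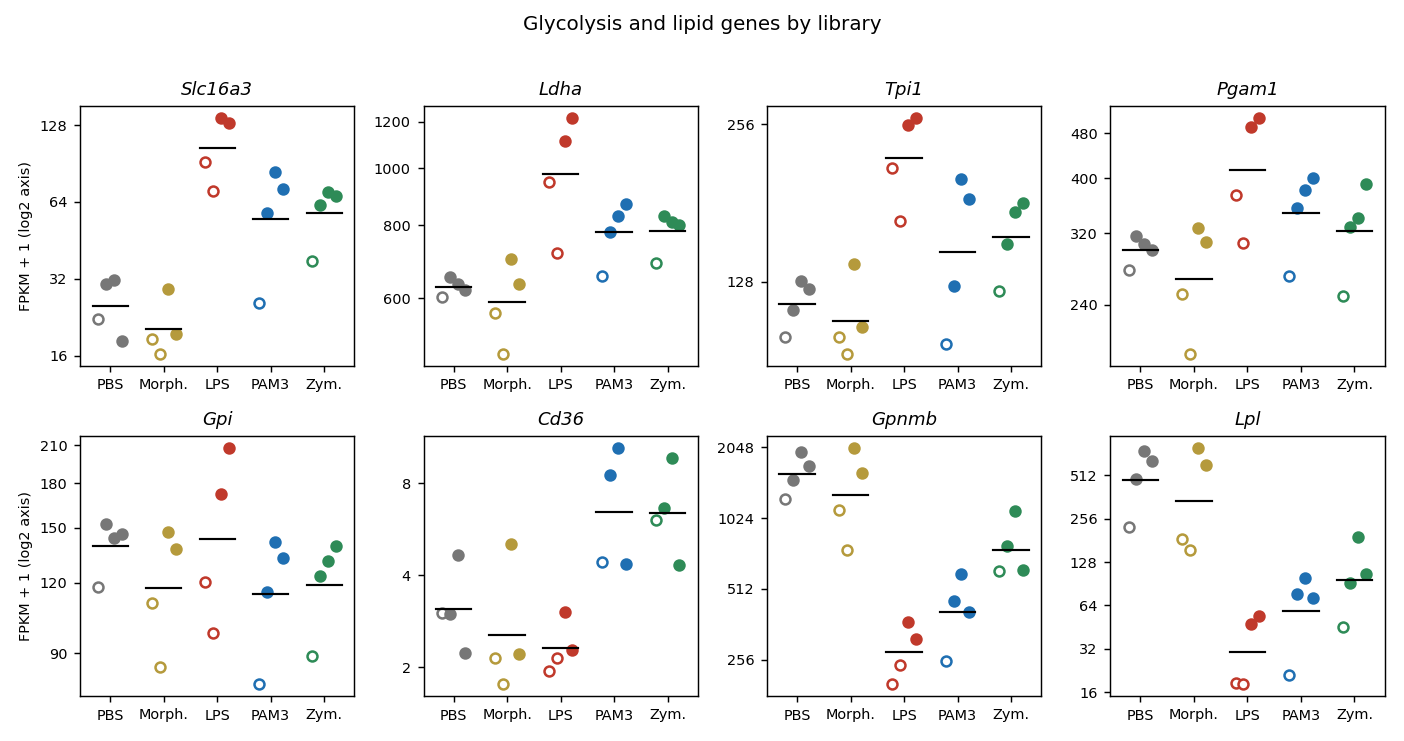
FPKM + 1 on a log2 axis for 5 glycolysis genes and 3 lipid genes, 1 point per library, 5 groups of 4, with bars for group means on the log2 scale. Open points, the smaller library set, lie low in most groups; among the filled points LPS is above the TLR2 agonists in the 5 glycolysis genes and below them in the 3 lipid genes.

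Cell cycle genes had the highest median of the 23 pathway lists, 0.54 as deposited and 0.42 after rescaling. Of 39 tested, 33 were positive on both scales, limma called 0, and 16 were higher and 0 lower at an unadjusted p under 0.05. Over all 8858 tested genes, 74.3% were positive as deposited and 4521 genes after rescaling. At that unadjusted threshold 5.73% of all tested genes were higher and 1.11% lower. Rrm2, a subunit of ribonucleotide reductase, which supplies DNA precursors, measured 4.28, 7.81, 12.4 and 9.93 FPKM in the LPS libraries, 10.6, 19.2, 17.5 and 13.2 in those given PAM3CSK4 and 20.9, 26.3, 32.6 and 18.5 in those given zymosan. The highest LPS library overlapped only the lowest PAM3CSK4 library, and zymosan had the highest mean of the agonists. The mean with PBS was 109 FPKM, above all agonist libraries. The difference was 1.13 (SE 0.23, limma adjusted p = 0.0861), 0.99 with the set term (limma adjusted p = 0.00731). With rescaling alone Rrm2 was called (0.98, limma adjusted p = 0.0325). It was not called within the larger set or with a pseudocount of 0.1 FPKM (limma adjusted p = 0.144 and 0.13). Ccnb2, a mitotic cyclin, measured 0.946 to 1.66 FPKM with LPS and 1.69 to 4.78 with the TLR2 agonists, without overlap (0.83, SE 0.20, limma adjusted p = 0.21), against a mean of 20.4 with PBS. Taken singly, the agonists gave a list median of 0.25 for PAM3CSK4 and 0.76 for zymosan against the same LPS libraries.

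The other pathway lists held no call on the values as deposited. Of all tested genes, 5.73% were higher and 1.11% lower at an unadjusted p under 0.05. Antigen presentation had a median of -0.04 (26 genes, 0 called by limma and 0 at an unadjusted p under 0.05), complement 0.28 (15 genes, 0 called, 4 higher and 1 lower at an unadjusted p under 0.05), and phagocytosis and the NADPH oxidase 0.19 (25 genes, 0 called, 6 higher and 0 lower). Homeostatic microglia genes had 0.14 (24 genes, 0 called, 2 higher and 0 lower), cholesterol synthesis 0.14 (26 genes, 0 called, 0 at an unadjusted p under 0.05) and inflammasome and cell death genes 0.21 (29 genes, 0 called, 3 higher and 0 lower). The RT1 genes of antigen presentation are near-identical copies and uncertain. Immediate early genes and MAPK phosphatases had 0.14 (35 genes, 0 called, 1 higher and 1 lower), interferon and JAK-STAT regulators 0.23 (25 genes, 0 called, 1 higher and 0 lower) and proteases and tissue factor 0.26 (19 genes, 0 called, 3 higher and 2 lower). For all tested genes the median was 0.15. After rescaling the antigen presentation median was -0.21 against 0.01 for all genes, with 20 of 26 genes negative (4334 of 8858 for all tested genes). It was 0.12 within the larger set (all genes 0.09) and -0.21 within the smaller (0.03).

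**Figure D4:**
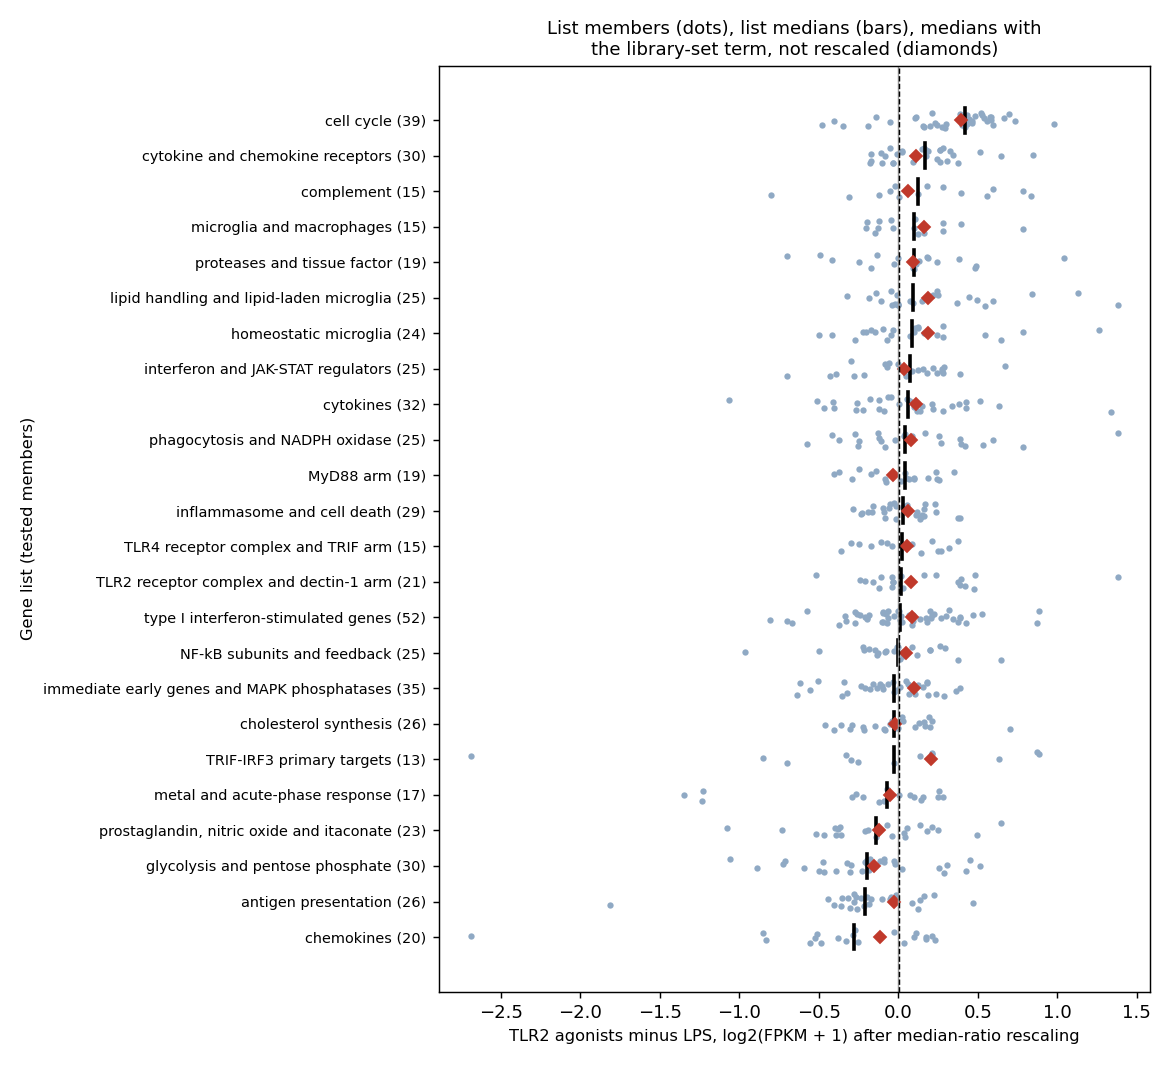
Difference between the TLR2 agonists and LPS, log2(FPKM + 1) after median-ratio rescaling, for each tested member of the lists with 13 or more tested genes (dots). Bars are list medians, diamonds medians with the library-set term on the scale as deposited, and the dashed line is the median of all tested genes, 0.01; cell cycle is farthest to the right, at 0.42, and chemokines farthest to the left, at -0.28.

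Between the 2 TLR2 agonists limma called 0 genes (0%), while 299 had an unadjusted p under 0.05 and 8 were called with the set term. Of the named genes, the smallest unadjusted limma p between them were those of Lcn2 (0.000297) and Ifnb1 (0.000953), both higher with PAM3CSK4 by 0.94 and 1.57 on the log2 scale.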

How the data were processed

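RNA from cultured microglia was sequenced from Smart-Seq2 and Nextera XT libraries, per the labels' protocols. The authors deposited FPKM values in 1 table of gene symbols. Per the submitters' processing notes, the rat build was rn6 and the tools were Cufflinks 2.2.1, HISAT2 2.0.5.1, featureCounts 1.4.6 and DESeq2, whose roles are not stated; nor is the annotation. FPKM depends on the total of its library, and an exact 0 can be a failed estimate. Groups and replicate numbers come from the labels, which name no separate cultures or animals, so p-values measure the spread among these samples only, possibly technical. Symbols were matched to RefSeq (GRCr8), 14814 of them as symbols and 2044 as synonyms.

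Values were tested as log2(FPKM + 1) in limma 3.58.1 (R 4.3.3) over genes reaching 1 FPKM in 4 or more of 20 libraries. The model had 5 group means, moderated variances and a mean-variance trend. The contrast was the average of PAM3CSK4 and zymosan minus LPS, two-sided, with Benjamini-Hochberg adjustment over all tested genes; an adjusted p under 0.05 was called. Each list was described by its counts and median beside all tested genes. Named genes were the 15 largest differences in each direction among called genes without overlap between groups and with a mean of at least 5 FPKM; with fewer than 5 called, the 5 smallest p; up to 4 called members of each list, or the 2 with the smallest p; and a fixed set of receptor, adaptor and cytokine genes, of which Ticam1 was not used here. Some genes that the rule gives are not reported here. The members and lists were chosen with earlier results of these data known. Library sets are the sign of the first component of the residuals. Alternatives were other pseudocounts, filters, scalings, weights and fits. Plots were drawn with matplotlib 3.10.9 in Python 3.11.15.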

Additional observations from a re-analysis of the deposited data

Results flagged for a closer look

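Among 49 genes named above, each with 3 agonist groups of 4 libraries (147 groups), 10 groups held a library far from the other 3; chance flags about 1 in 20 groups. In 5 of the 10 groups that library belonged to the smaller set. Nradd measured 5.57 FPKM in PAM3CSK4 1 and 8.81 to 8.97 in the other PAM3CSK4 libraries, and Mt2A 123 FPKM in PAM3CSK4 1 and 33.8 to 44 in the others. In zymosan 1, Tlr2 measured 100.004 FPKM, against 199 to 211 in the other zymosan libraries, and Il1b 7301 FPKM, against 10720.2 to 11199. Il6 measured 396 FPKM in LPS 2 and 544 to 559.5 in the other LPS libraries. In the other 5 groups it belonged to the larger set. Crip2 was low in zymosan 3, at 5.92 FPKM against 8.44 to 8.74, and Dnase2 high in the same library, at 77.1 FPKM against 64.5 to 65.6. Csf2 was high in zymosan 4, at 139 FPKM against 85.2 to 86.4, and Ccnb2 low there, at 2.28 FPKM against 4.52 to 4.78. Cd14 was high in LPS 4, at 1083 FPKM against 640.5 to 651.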

How the results depend on the processing

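The 7 calls between the pooled TLR2 agonists and LPS became 2 with a pseudocount of 0.1 FPKM, 3 with only the 12 TLR agonist libraries in the fit, 4 with the 8 TLR2 libraries as 1 group, 3 within the larger library set, 48 with the library-set term, 43 with that term and rescaling, and 141 with library quality weights. Leaving out 1 library in turn gave 0 to 16, with 0 without LPS 1, 16 without PAM3CSK4 1, 7 without zymosan 4 and 2 to 4 without each of the others. No filter gave 10, rescaling 9 (2 higher and 7 lower) and zeros as missing 6, within 1.5 times of the main count. For PAM3CSK4 against zymosan, 0 calls became 1 without the filter, 18 with weights, 8 with the set term, 3 with that term and rescaling and 1 within the larger set. Each of the 7 genes kept its direction under the 23 alternatives, which called Crip2 in 22, Ccl5 in 20, Calm2 and Il10 in 12, Lcn2 in 10, Stap2 in 9 and Calm3 in 8. Why the counts vary was not tested. Depth is unknown, so counting error could not be set apart from other spread.

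The replicate number as a block gave 78 pooled calls and 8 for PAM3CSK4 against zymosan. The numbers do not pair the samples by the labels: same-numbered libraries of the 3 groups had correlations of their deviations from -0.28 to 0.79, over 0.1 in 10 of 12 pairs, and 11 of 12 libraries correlated best with one of their own number, a hint from the data and not from the design. The smaller library set held replicate 1 of every group, morphine 2 and LPS 2, so replicate number and library set overlap and are not separate hints. The negative pairs were those of LPS 2 with PAM3CSK4 2 (-0.26) and zymosan 2 (-0.28).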

Other observations

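Further genes were called with the library-set term and not in the same fit without it, and those named here were chosen after their values were seen. Phgdh, the first enzyme of serine synthesis, measured 9.89 to 14 FPKM with LPS and 14.9 to 30.0 with the TLR2 agonists (0.84, limma adjusted p = 0.21; 0.78 and limma adjusted p = 0.0477 with the set term), without overlap. Nop56 and Gnl2, which act in ribosome assembly, differed by 0.42 and 0.41 with the set term (limma adjusted p = 0.0218 and 0.0388), and neither was called when the libraries were also rescaled (limma adjusted p = 0.0686 and 0.0629). On the lower side, Glul, glutamine synthetase, measured 102 to 204 FPKM with LPS and 62.5 to 159 with the TLR2 agonists (-0.38, limma adjusted p = 0.742; -0.54 and limma adjusted p = 0.0118 with the set term). Mif, encoding macrophage migration inhibitory factor, measured 73.1 to 136 FPKM with LPS and 48.7 to 90.7 with the TLR2 agonists (-0.66, limma adjusted p = 0.606; -0.49 and limma adjusted p = 0.0317 with the set term). The groups overlapped in both, and both were called with the set term and rescaling (limma adjusted p = 0.000183 and 0.0185).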
